A study of Mus musculus with 8 samples.

Results

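The nuclei described here are those of CA3 pyramidal neurons of the mouse hippocampus, picked from single-nucleus RNA counts by a rule on marker genes. A barcode was taken when it held at least 500 genes, at least 10 unique molecular identifiers (UMIs, each counting 1 captured RNA molecule) of Grik4 and at least 3 of Iyd and Cpne4 together. It also had to hold fewer than 4 UMIs of the CA1 genes Mpped1, Fibcd1 and Wfs1, fewer than 5 of the dentate genes Prox1, Trpc6 and C1ql2, and fewer than 6 of the interneuron genes Gad1 and Gad2. The rule found 971 nuclei among the 46752 hippocampal nuclei with at least 500 genes, out of 108519 such nuclei in the whole series.

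CA3 pyramidal neurons are the excitatory cells between the dentate gyrus and CA1. Granule cells of the dentate gyrus contact them through mossy fibres, whose large terminals sit on thorny spines, and they excite each other through recurrent collaterals before passing activity to CA1 through Schaffer collaterals. They carry kainate receptors, of which Grik4 encodes a high-affinity subunit, and the recurrent network is known for its part in memory recall and for its liability to seizures.

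The 4 hippocampal libraries came from C57BL/6JN mice without any further treatment, 2 libraries at 3 months and 2 at 21 months of age. Each library pooled sorted nuclei of 1 male and 1 female mouse, taken from punches of the anterior hippocampus of the left hemisphere, and was made with the 10x Genomics droplet method. The labels do not say that mice were shared between libraries, so each library is 1 replicate of its age and the p-values measure the spread between such pools of 2 animals. The caudate putamen, sampled in 4 more libraries of the same ages, holds no CA3 and served as a background for the rule: 68 of its barcodes met the same counts, between 0.0686% and 0.139% of each library.

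The hippocampal libraries held between 67205436 and 234811422 UMIs and between 6555 and 20168 nuclei. CA3 nuclei had median UMIs of 22581 and 22568 per nucleus at 3 months and 24887 and 25942 at 21 months. The median over all hippocampal nuclei lay between 7910 and 9487. CA1 nuclei, picked as given below, were about as deep, with medians of 21151, 21756, 23422 and 22771 in the same order. The CA3 rule asks for 10 Grik4 UMIs, and at 5 or more the CA3 medians were 19942.5, 18994, 18815 and 22136. By the rule itself, the 21-month CA3 medians were both above the 3-month ones, by 2840 UMIs on average. The exact two-sided permutation test gave p = 0.333, the smallest that 2 libraries against 2 can give. The CA3 sums held 5696357 and 10096278 UMIs at 3 months and 3664944 and 5252331 at 21 months. No CA3 barcode was shared between libraries, and none held more than 5% mitochondrial UMIs.

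CA3 nuclei made up 2.04% (95% exact binomial interval 1.78 to 2.32) and 2.05% (1.86 to 2.25) of nuclei at 3 months, from 225 and 413 nuclei. At 21 months they made up 1.54% (1.30 to 1.82) and 2.96% (2.56 to 3.40), from 139 and 194 nuclei. Both 3-month shares lay between the 21-month ones, whose SD of 1.00 percentage point exceeded the mean difference of 0.208 points (exact two-sided permutation test, p = 1). The intervals cover counting error only, and the part of the placing of the punch in these shares was not tested.

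Of the values that chose the nuclei, the median Grik4 count was 33 and 30 UMIs at 3 months and 33 and 37 at 21 months, and the median Cpne4 count was 22, 17, 21 and 22 in the same order. Iyd, which encodes an iodotyrosine deiodinase, had a median of 0 in every library, so that Cpne4, a calcium-dependent membrane-binding copine, met that part of the rule for most nuclei. Just inside the Grik4 threshold, at 10 to 12 UMIs, lay 23, 37, 18 and 4 nuclei, and just outside it, at 7 to 9, lay 28, 69, 51 and 24.

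The label was checked against 6 CA3 markers that the rule did not use. Nectin3, an adhesion molecule placed on the CA3 side of mossy fibre contacts, stood at 288 and 329 CPM (a gene's UMI count in the summed nuclei of a library, scaled by the total of that sum in the usual way) at 3 months and at 322 and 373 at 21 months. The CA1 nuclei of the same libraries, picked by the mirrored rule (1395 nuclei), held 19.8 to 30.5 CPM of it and the dentate granule nuclei (6282) 4.08 to 10.1. Socs2, a suppressor of cytokine signalling, stood at 86.7, 96.7, 92.5 and 111 CPM in CA3 and at no more than 4.20 CPM in either of the others. Trps1, a GATA-type zinc finger repressor, stood at 1832, 2245, 2405 and 2073 CPM against 58.1 to 138 in the others. Cdh24, a cadherin, and Bok, a BCL2 relative, were also higher in every CA3 sum than in any of the others. Coch, the last of the 6, did not stand apart: it held 1.64 to 2.87 CPM in CA3 and up to 2.22 in dentate granule nuclei. The vesicular glutamate transporter gene Slc17a7 stood at 145 to 212 CPM in CA3 and at 88.4 to 149 over all hippocampal nuclei. The neuronal transcription factor gene Neurod6 stood at 73.4 to 103 CPM, where all nuclei held up to 27.03. Both excitatory markers were higher in CA3 than over all nuclei in every library. The other excitatory marker, Camk2a, did not stand apart. It held 1104, 1026, 980 and 1026 CPM in CA3, where all nuclei held 1040, 1128, 879 and 895.

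**Figure D1:**
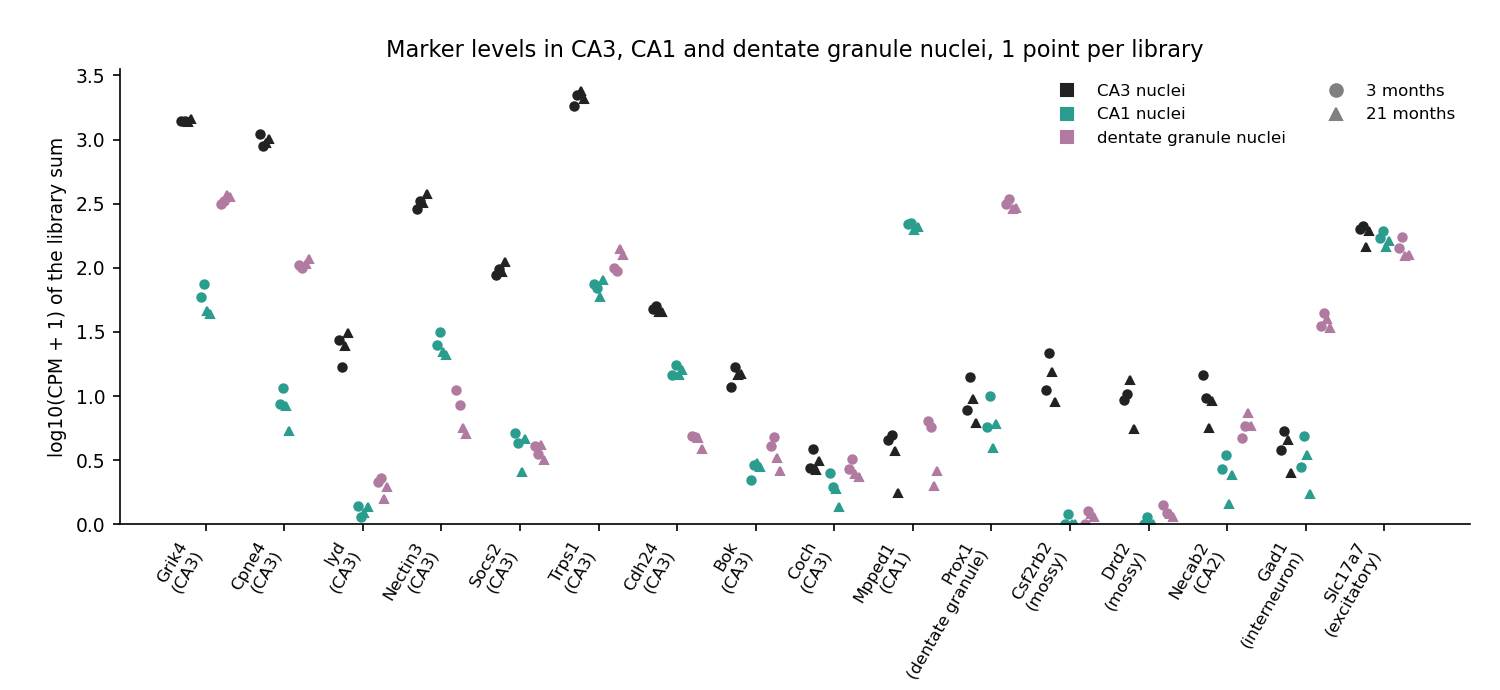
Levels of marker genes on a log10(CPM + 1) scale, 1 point per library, in the sums of CA3 (black), CA1 (green) and dentate granule (pink) nuclei, with circles for 3 months and triangles for 21 months. Grik4, Cpne4, Iyd, Mpped1, Prox1 and Gad1 were used to pick the nuclei. Nectin3, Socs2 and Trps1 were not, and all their CA3 points lie above every CA1 and dentate granule point, while those of Coch overlap across libraries.

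Not all the nuclei were typical CA3 cells. Clustering the 971 nuclei, each thinned to 5000 UMIs, gave 13 clusters. Clusters 1 to 3, with 287, 183 and 127 nuclei, were CA3-like by the fixed markers, Nectin3 leading the first. Cluster 4 (102 nuclei) was mossy-like: it was led by Gm32647 and by Csf2rb2, and held Drd2 and Ajap1, markers of the mossy cells of the dentate hilus, a neighbouring excitatory type that Grik4 also labels. Cluster 6 (43 nuclei) was CA2-like, with Rgs14, Map3k15, Cacng5 and Necab2, and cluster 8 (34 nuclei) was dentate granule-like, with Prox1, Trpc6, Dsp and Stxbp6. The names of clusters 4, 6 and 8 thus rest on part of each fixed list, without Calb2, Amigo2 and C1ql2. Cluster 9 (32 nuclei) held astrocyte genes such as Aqp4, cluster 12 (20 nuclei) held oligodendrocyte genes such as Mbp and Mobp, and cluster 5 (45 nuclei) was led by Ebf1 and Unc13c. These 3 and the remaining clusters were left unnamed. Because the clusters were built from the same genes, their leading genes describe them and are not a test.

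The make-up differed between libraries. The mossy-like cluster held 24 and 55 nuclei at 3 months and 16 and 7 at 21 months, or 10.7%, 13.3%, 11.5% and 3.61% of the CA3 nuclei of each library. The CA2-like one held 19 and 15 against 0 and 9, or 8.44%, 3.63%, 0% and 4.64%, and both shares overlapped between the ages. Cluster 5 held 5 and 17 nuclei at 3 months and 19 and 4 at 21 months, so that the 3-month replicate 2 and the 21-month replicate 1 held most of it. Cluster 2 took 29.5% of the second 3-month library and 9.33% to 12.4% of the others. The summed CPM of the 5 CA2 markers was 32.3 and 22.8 at 3 months and 12.3 and 18.8 at 21 months, lower in both older libraries. That of the 4 mossy markers (116, 139, 139 and 86.1) and of the 5 dentate granule markers (62.5, 123, 147 and 43.0) overlapped between the ages. The 3 CA1 genes of the rule summed to 7.02 and 8.52 CPM at 3 months and to 4.09 and 2.67 at 21 months. They were lower in both older libraries, and their part in the results below was not tested.

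**Figure D2:**
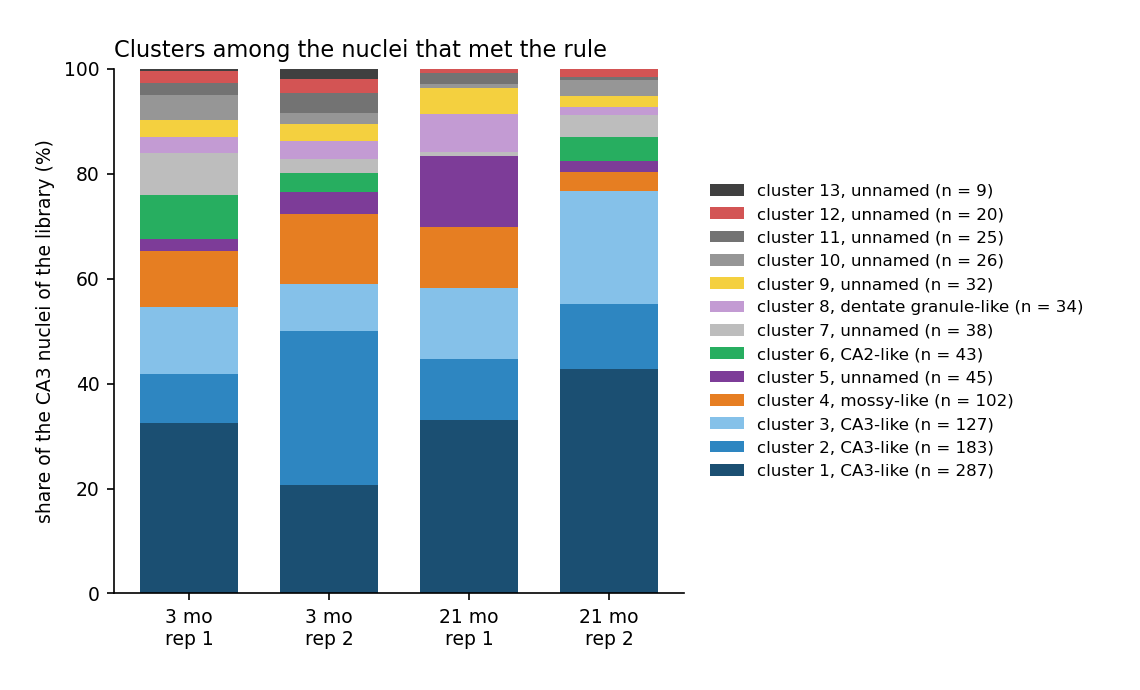
Share of the CA3 nuclei of each library (%, y axis) that fell in each of the 13 clusters, stacked and summing to 100. CA3-like clusters 1 to 3 make up the lower part of each bar, and the mossy-like, CA2-like and unnamed clusters above them differ in share between libraries of the same age.

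For this reason each age comparison was also made on the 697 nuclei (151, 288, 94 and 164) that held 4 or more UMIs of Nectin3, Socs2, Bok, Coch and Cdh24 together, fewer than 2 of the CA2 markers and fewer than 2 of Calb2, Csf2rb2 and Drd2. This restriction was chosen after the clusters had been seen. By this choice Csf2rb2 stood at no more than 0.867 CPM in them, against 7.996 to 20.6 in all CA3 nuclei, and the CA2 markers at 4.23 to 6.50 CPM with overlapping ages. The CA1 genes of the rule summed to 4.76 and 5.63 CPM in them at 3 months and to 2.37 and 2.74 at 21 months.

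Of the glial and interneuron markers in CA3, the microglial ones came nearest to their level over all nuclei. The 5 oligodendrocyte markers summed to 71.98 and 92.7 CPM at 3 months and 57.3 and 59.8 at 21 months, where all hippocampal nuclei held 403 to 684. The 5 astrocyte markers summed to 48.3, 77.4, 62.2 and 29.5 CPM, where all nuclei held 328 to 706, and the 3 interneuron markers to 5.27, 7.03, 4.37 and 2.67, where all nuclei held 51.2 to 69.3, with Slc32a1 at 0 in both older libraries. The 4 microglial markers summed to 78.3, 81.1, 69.9 and 75.6 CPM, where all nuclei held 105, 101, 90.4 and 117. Most of that was P2ry12, at 66.7, 68.5, 61.7 and 68.2 CPM in CA3 and 66.8, 69.6, 54.2 and 68.8 over all nuclei. Csf1r and Inpp5d were at 0 in CA3 in the first 21-month library. The 3 oligodendrocyte precursor markers summed to 16.5 and 11.7 against 4.91 and 7.81 CPM. The 2 endothelial ones summed to 5.27 and 8.52 against 2.46 and 1.33. Both, and the oligodendrocyte, microglial and interneuron sums, were lower at 21 months without overlap, while the astrocyte sums overlapped. The part of these markers' cell types in the results below was not tested.

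The sexes were not equally represented in CA3. By Xist against Y-linked genes, 64.4% (57.2 to 71.2) and 66.1% (60.7 to 71.1) of the CA3 nuclei with a call were female at 3 months, against 29.4% (21.0 to 38.8) and 31.2% (24.1 to 39.1) at 21 months. Both Xist and Y-linked UMIs were held by 34 and 80 CA3 nuclei at 3 months and by 30 and 35 at 21 months. Such nuclei had no call and are left out of the values by sex, but stayed in the sums of all CA3 nuclei. Over all hippocampal nuclei the female share was 59.0% and 60.3% at 3 months and 51.9% and 50.9% at 21 months. CA1 nuclei, at 74.4%, 52.8%, 48.3% and 83.5%, did not show the same order. Since each library held 1 mouse of each sex, sex and animal cannot be told apart, and the share of each animal in the CA3 sums was different at the 2 ages. Values in female and in male nuclei are therefore given beside several of the genes below.

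**Figure D3:**
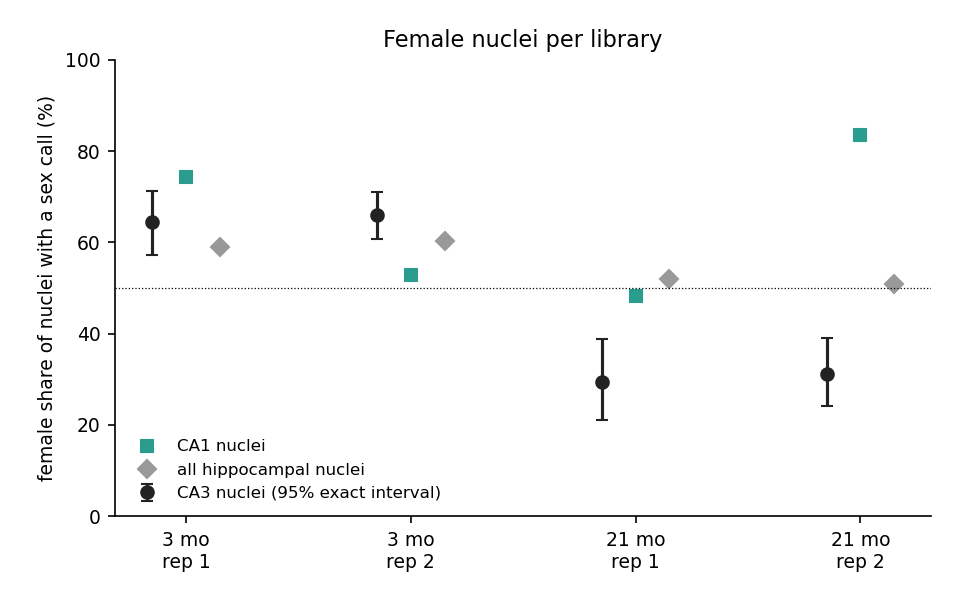
Female share of nuclei with a sex call (%, y axis) in each hippocampal library for CA3 nuclei (black circles with 95% exact binomial intervals), CA1 nuclei (green squares) and all nuclei (grey diamonds); the dotted line marks equal shares. CA3 lies at 64.4% and 66.1% in the 3-month libraries and at 29.4% and 31.2% in the 21-month ones.

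With 2 libraries of each age, no gene passed the test between 3 and 21 months in all CA3 nuclei. edgeR's quasi-likelihood test with Benjamini-Hochberg adjustment called 0 of 13445 genes (0%) at an adjusted p under 0.05, while DESeq2 on the same sums called 3 as higher and 5 as lower. At an unadjusted p under 0.05, 248 genes (1.84%) lay higher and 408 (3.03%) lower at 21 months, together 4.88%. Without overlap of the libraries of both ages in CPM were 1356 genes higher (10.1%) and 3122 lower (23.2%) at 21 months. In the nuclei with further CA3 markers the same test called 7 of 12360 genes as higher (0.0566%) and 5 as lower (0.0405%), and 3.08% and 3.27% of genes lay higher and lower by an unadjusted p under 0.05. There 11.4% and 24.5% of genes lay higher and lower without overlap. Those 12 calls were 7 with DESeq2, and 23, 19, 14 and 55 without 3-month replicate 1, 3-month replicate 2, 21-month replicate 1 and 21-month replicate 2. The single genes below are the 10 per direction with the lowest unadjusted p among those without overlap. None of them passed edgeR's test in all CA3 nuclei, and the DESeq2 calls there are not given gene by gene.

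Lin28b, an RNA-binding protein that blocks the maturation of let-7 microRNAs, lies at chr10:45376620-45486395 on the minus strand. In CA3 it stood at 18.3 and 26.0 CPM at 3 months and at 47.8 and 46.5 at 21 months. Both older libraries lay above both younger ones, with a fitted fold of 2.19 or a log2 fold change of 1.13 ± 0.16 (SE) and an adjusted p of 0.203 (edgeR). With further CA3 markers it stood at 10.6 and 13.9 CPM against 33.5 and 44.1, and there it rose, by 1.72 on the log2 scale (edgeR, adjusted p = 0.00335). The same separation was seen in female CA3 nuclei (16.1 and 25.8 against 77.3 and 63.6 CPM) and in male ones (17.1 and 25.8 against 40.8 and 45.2). It also rose in CA1, by 2.10 (edgeR, adjusted p = 4.1e-07), and in dentate granule nuclei, by 2.07 (adjusted p = 0.000176).

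Neighbouring long non-coding RNA genes on chromosome 13 gave the largest age folds among the named genes. Gm40653 (chr13:3273235-3282998, plus strand) had 5 and 4 UMIs in the 3-month CA3 sums and 27 and 58 in the 21-month ones, or 0.878, 0.396, 7.37 and 11.04 CPM. In CA3 it passed edgeR's filter on low counts only through the 21-month libraries. The fitted fold was 16.3, and its log2 value of 4.03 ± 0.49 had an adjusted p of 0.0838 in all CA3 nuclei and was called with further markers (4.01, edgeR, adjusted p = 0.00335). Female nuclei held 1.71, 0.764, 1.19 and 14.8 CPM of Gm40653, with overlapping ages, and male ones 0, 0, 8.07 and 10.98. Gm48530 (chr13:3325296-3358455, minus strand) stood at 10.2 and 5.35 CPM at 3 months and at 72.6 and 62.8 at 21 months. Its log2 fold change was 3.24 ± 0.30 with an adjusted p of 0.129, and with further markers 3.54 with an adjusted p of 0.637 (edgeR). In female nuclei Gm48530 stood at 15.7 and 8.59 against 41.6 and 88.02 CPM and in male ones at 4.95 and 0.368 against 86.7 and 47.8, without overlap in either. Both also rose in CA1, by 5.42 and 4.74 on the log2 scale, and in dentate granule nuclei, by 3.34 and 2.95 (edgeR, adjusted p at most 6.71e-05 in each).

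Among the remaining genes named as higher at 21 months, 4930447C04Rik stood at 62.8, 64.7, 93.9 and 87.6 CPM (log2 0.56, edgeR adjusted p = 0.487) and was called with further markers (0.68, adjusted p = 0.037). Gm29865 stood at 30.4, 27.7, 43.9 and 45.3 CPM, and Blnk, a B-cell linker adaptor, at 6.32, 5.94, 12.01 and 13.7. Gm10754 stood at 110, 103, 162 and 143 CPM. The other 3 were the Y-linked genes Eif2s3y, Uty and Kdm5d, whose log2 fold changes of 0.98, 0.70 and 0.95 run with the larger share of male nuclei at 21 months. In male nuclei alone the log2 changes were 0.23, -0.10 and 0.26.

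Cadps2, which primes dense-core vesicles for calcium-dependent release of peptides and neurotrophins, was among the genes lower at 21 months and lies at chr6:23262773-23839421 on the minus strand. In CA3 it stood at 80.4 and 74.9 CPM at 3 months and at 26.2 and 33.1 at 21 months. Both older libraries lay below both younger ones, with a log2 fold change of -1.32 ± 0.16 and an adjusted p of 0.0838 (edgeR). With further CA3 markers it stood at 58.4 and 60.1 CPM against 17.3 and 26.1 and fell by 1.34 on the log2 scale (edgeR, adjusted p = 0.0039). Female CA3 nuclei held 91.9 and 83.6 CPM against 38.1 and 28.8, and male ones 49.0 and 49.0 against 19.7 and 35.5, without overlap in either. CA1, where Cadps2 was far more abundant, held 667 and 615 against 686 and 756 CPM, and dentate granule nuclei 134 and 112 against 121 and 124. The CA1 genes of the rule were also lower in the older CA3 sums (7.02 and 8.52 against 4.09 and 2.67 CPM). The part of CA1 RNA in Cadps2, and in Adcy1, Homer2 and Npas2 below, was not tested.

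Adcy1, a calcium- and calmodulin-stimulated adenylyl cyclase (chr11:7063489-7178506, plus strand), stood at 58.3 and 58.2 CPM at 3 months and at 28.6 and 25.1 at 21 months. The groups did not overlap, and the log2 fold change was -1.07 ± 0.13 (edgeR, adjusted p = 0.0838). This did not carry over to the nuclei with further CA3 markers, which held 16.9 and 24.6 against 17.3 and 12.8 CPM (log2 -0.46, edgeR, adjusted p = 0.78). Of all CA3 nuclei, female ones held 60.5 and 58.4 against 17.8 and 16.6 CPM and male ones 62.7 and 50.5 against 31.8 and 25.8. Adcy1 was thus several times lower in nuclei with those markers than in all 971 at 3 months, and in CA1 and dentate granule nuclei it stood at 152 to 284 CPM. Tiam2, an activator of the GTPase Rac, was also lower in level with further markers: it stood at 21.2 and 25.0 against 10.4 and 6.66 CPM in all CA3 nuclei, and at 7.93 and 12.7 against 6.31 and 4.57 with those markers, without overlap in either.

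Bcas1, known from newly myelinating oligodendrocytes, held 48 and 104 UMIs at 3 months and 9 and 7 at 21 months in CA3, or 8.43, 10.3, 2.46 and 1.33 CPM. Female CA3 nuclei held 2.73 and 2.86 against 0 and 0 CPM, and male ones 17.1 and 6.63 against 1.01 and 1.61. In 3-month replicate 2 the level over all CA3 nuclei was above that of either sex. Nuclei with both Xist and Y-linked UMIs are in neither. Bcas1 was called with further markers (log2 -2.84, edgeR, adjusted p = 0.00335). It was also among the 10 leading genes of cluster 12, the one with oligodendrocyte genes, which held 5 and 11 nuclei at 3 months and 1 and 3 at 21 months, and their part in the result was not tested. Cst3, the secreted protease inhibitor cystatin C, stood at 47.6 and 64.1 against 30.3 and 30.1 CPM and was called with further markers (-0.90, edgeR, adjusted p = 0.037). It also fell in dentate granule nuclei (-0.67, adjusted p = 0.0018). Nckap5 stood at 75.7, 57.9, 33.8 and 25.9 CPM (log2 -1.12) and fell in dentate granule nuclei too (-1.40, edgeR, adjusted p = 2.89e-05).

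The last of the genes named as lower were Xist, Tsix and Gm5149, which led 1 small cluster. Xist stood at 334 and 445 against 223 and 195 CPM over all CA3 nuclei, but at 566, 728, 724 and 757 in female ones, where the log2 change was 0.20. Tsix, its antisense partner, stood at 91.99 and 106 against 51.3 and 47.4 CPM, and at 147, 164, 133 and 150 in female nuclei. Whether the counting used strand is not given in the sources used here, so their reads may be mixed. Gm5149 (5.27, 7.43, 1.64 and 1.33 CPM) was a leading gene of cluster 13, with 1 and 8 nuclei at 3 months and none at 21. In all CA3 nuclei Gm5149 passed edgeR's filter on low counts only through the 3-month libraries. With further markers Gm5149 stood at 0.529, 1.16, 0.788 and 1.60 CPM, with overlapping ages.

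The 12 genes called in the nuclei with further CA3 markers were Lin28b, Gm40653, 4930447C04Rik, Efna5, Gm26691, Cntnap5b and Eif2s3y as higher and Bcas1, Tsix, Xist, Cadps2 and Cst3 as lower. Among them, 3 are Xist, Tsix and a Y-linked gene, 3 were also called in CA1 and 4 in dentate granule nuclei. Efna5, an ephrin ligand for EphA receptors, stood at 2.64 and 5.49 against 29.6 and 19.9 CPM (log2 2.53, edgeR, adjusted p = 0.00335). Female nuclei with further markers held 2.30 and 3.46 against 61.3 and 71.2 CPM of Efna5, and male ones 3.07 and 1.00 against 30.4 and 4.33. In all CA3 nuclei it stood at 10.0, 37.1, 67.7 and 23.0 CPM, with overlapping ages and an adjusted p of 0.98. Cntnap5b, a contactin-associated adhesion protein, stood at 91.4 and 107 against 154 and 140 CPM with further markers (0.62, edgeR, adjusted p = 0.04), and Gm26691 at 14.8 and 13.1 against 37.8 and 26.3 (1.24, adjusted p = 0.037). Gm26691 was also called as higher in CA1 (0.49, adjusted p = 0.0208) and in dentate granule nuclei (0.53, adjusted p = 0.047).

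The age effect in CA3 was then set against those of CA1 and dentate granule nuclei of the same libraries, in 1 edgeR fit of 12 sums with the library as a block. In their own fits CA1 had 46 genes higher (0.329%) and 44 lower (0.314%) at 21 months of 13997 tested, and dentate granule nuclei 257 higher (1.67%) and 198 lower (1.29%) of 15364. The sums differ in nuclei and depth, so these counts are not compared with the 0 of CA3. The age effect itself differed between CA3 and CA1 for 17 of 15989 genes: 7 with a more positive effect in CA3 (0.0438%) and 10 with a more negative one (0.0625%). It differed between CA3 and dentate granule nuclei for 38 genes with a more positive effect in CA3 (0.238%) and 24 with a more negative one (0.15%).

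The genes with a more positive effect in CA3 were mostly ones called in the other type. Among the 7 against CA1, 6 were called in CA1 on its own and 2 had an unadjusted p under 0.05 in CA3, and among the 38 against dentate granule nuclei the counts were 28 and 6. Among the 10 with a more negative effect than in CA1, 9 had an unadjusted p under 0.05 in CA3 (4.88% over all genes) and all 10 had no overlap of the CA3 libraries (10.1% higher and 23.2% lower over all genes). Of these 10, 7 lay lower in CA3 at 21 months, while Gm48530, 9530026P05Rik and St8sia6 lay higher in CA3 (log2 3.24, 0.43 and 0.20) and by more in CA1. Among the 24 against dentate granule nuclei, 13 had such a p in CA3 and 16 were called in dentate granule nuclei. All these genes were picked by a fit on the same sums, so the counts describe the calls and are not a separate test.

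Cadps2 had the lowest p among the more negative effects in both. The difference in log2 age effect was -1.57 ± 0.13 from CA1 (edgeR, adjusted p = 3.02e-05) and -1.40 ± 0.13 from dentate granule nuclei (adjusted p = 4.46e-05). In male nuclei alone the differences were -1.35 and -0.73 and neither passed (adjusted p = 0.077 and 0.84). Adcy1 differed from CA1 by -1.07 ± 0.12 (edgeR, adjusted p = 0.00114) and from dentate granule nuclei by -0.99 (adjusted p = 0.000611). With further CA3 markers its difference from CA1 was -0.49 (edgeR, adjusted p = 0.55), and without 3-month replicate 1 or 2 it was -1.02 or -1.13. In all, the Adcy1 difference from CA1 missed the threshold in 5 of 13 alternatives, with values from -1.92 to -0.49.

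Homer2, a scaffold that ties metabotropic glutamate receptors to intracellular calcium stores, stood in CA3 at 44.8 and 36.0 CPM at 3 months and at 22.9 and 25.7 at 21 months. In CA1 it stood at 140 and 131 against 173 and 163, without overlap in the opposite direction. The difference was -1.03 ± 0.15 (edgeR, adjusted p = 0.0179). With further CA3 markers Homer2 stood at 20.3, 24.4, 19.7 and 17.8 CPM and the difference was -0.62 (adjusted p = 0.28). Female CA3 nuclei held 56.4 and 40.5 against 22.6 and 22.7 CPM of Homer2, and male ones 34.7 and 24.3 against 21.7 and 23.9. The difference from CA1 missed the threshold in 7 of 13 alternatives, among them those without 3-month replicate 1 (-0.91, edgeR, adjusted p = 0.31) or 2 (-1.16, adjusted p = 0.17).

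Npas2, a circadian transcription factor related to Clock, stood in CA3 at 43.4 and 32.7 against 22.4 and 20.2 CPM and in dentate granule nuclei at 53.8 and 37.4 against 59.5 and 52.6. The difference was -1.17 ± 0.13 (edgeR, adjusted p = 0.000237), and without the library as a block the adjusted p was 0.9. Against CA1 it was -0.80 (adjusted p = 0.0278). With further CA3 markers Npas2 stood at 40.2 and 24.4 against 26.02 and 21.03 CPM, with overlapping ages, and its log2 age change in CA3 was -0.38 there against -0.78 in all CA3 nuclei. Female CA3 nuclei held 40.7 and 39.9 against 24.98 and 26.1 CPM, and male ones 33.6 and 23.2 against 18.7 and 19.4. Dchs2, a large cadherin, stood at 53.0, 49.3, 46.4 and 46.8 CPM in CA3 and at 3.51 and 3.87 against 11.3 and 12.2 in dentate granule nuclei, where it rose. The difference was -1.78 ± 0.20 (edgeR, adjusted p = 0.000237), and with equal numbers of nuclei per library -1.73 (adjusted p = 0.10).

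Rxfp1, a relaxin receptor, and Rspo3, a secreted enhancer of Wnt signalling, had more negative effects in CA3 than in CA1 by 2.57 and 2.29 on the log2 scale (edgeR, adjusted p = 0.0404 and 0.0447). Both were scarce in CA3: Rxfp1 stood at 3.51 and 4.06 against 0.819 and 0.762 CPM, and Rspo3 at 4.56 and 7.33 against 1.91 and 0.952. Osbpl3 was also among the 10, at -0.95. These 3 genes and St8sia6, 9530026P05Rik, Npas2 and Gm48530 were named because the set of 10 was to be given in full. Gm48530, which rose in CA1, had a smaller log2 change in CA3 by 1.47 (adjusted p = 0.0442).

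**Figure D4:**
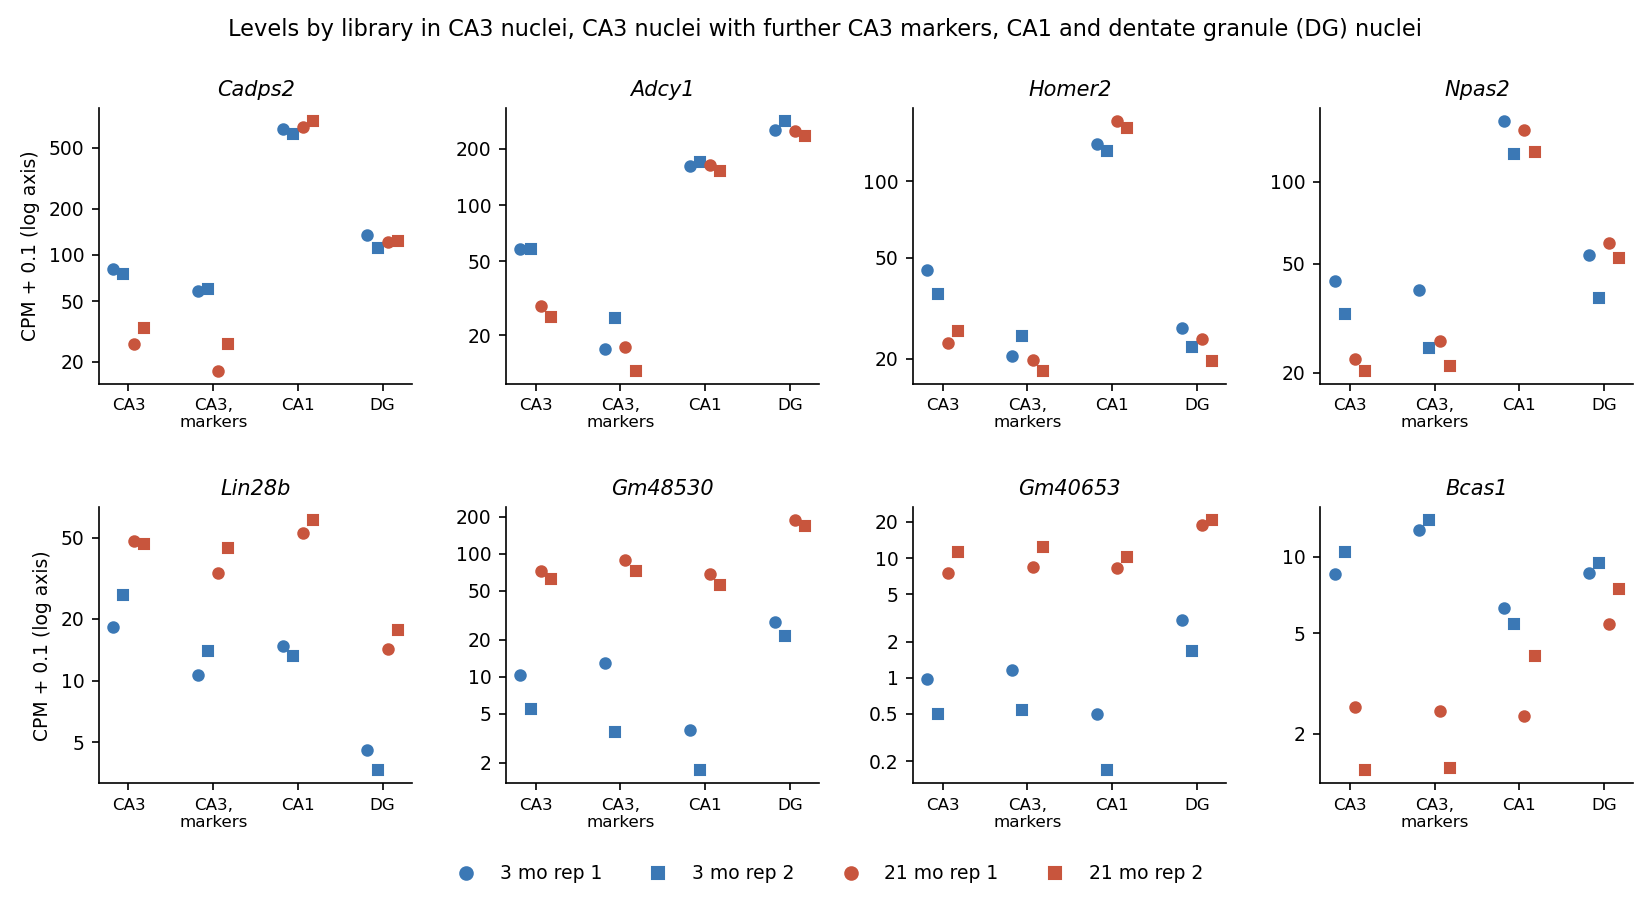
CPM + 0.1 on a log axis for 8 genes in the sums of all CA3 nuclei, CA3 nuclei with further CA3 markers, CA1 and dentate granule (DG) nuclei, 1 point per library, blue for 3 months and red for 21 months. Cadps2 lies lower at 21 months in both CA3 sums and not in CA1 or DG, Adcy1 and Homer2 overlap or nearly meet in the CA3 nuclei with further markers, and Lin28b, Gm48530 and Gm40653 lie higher at 21 months in all 4 kinds of sum.

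Tafa2, a secreted chemokine-like protein of neurons, had the lowest p among the more positive effects against CA1. It stood in CA3 at 653 and 598 CPM at 3 months and at 736 and 669 at 21 months, and in CA1 at 37.5 and 40.2 against 18.5 and 14.4. The CA3 libraries did not overlap, by a small margin, while CA1 fell by 1.14 on the log2 scale, and the difference was 1.36 ± 0.15 (edgeR, adjusted p = 0.000646). Slit2, a secreted guidance ligand of Robo receptors, stood at 422, 376, 366 and 500 CPM in CA3, with overlapping ages, and at 39.1 and 39.6 against 14.2 and 14.03 in CA1. The difference was 1.55 ± 0.20 (edgeR, adjusted p = 0.0179). Pcdh7, a protocadherin, stood at 460 and 486 against 698 and 553 CPM in CA3 and at 198 and 216 against 144 and 152 in CA1, opposite in direction and without overlap in both. The difference was 0.86 ± 0.13 (edgeR, adjusted p = 0.0208). It missed the threshold in 8 of 13 alternatives, with values of 0.23 in male nuclei to 1.54 in female ones, and among them without 3-month replicate 1, 3-month replicate 2 or 21-month replicate 1 (0.90, 0.82 and 0.73, adjusted p = 0.15, 0.26 and 0.11). Without 3-month replicate 2 the differences for Tafa2 (1.24) and Slit2 (1.44) missed it too (adjusted p = 0.12 and 0.17). In all, Tafa2 missed it in 3 of 13 alternatives and Slit2 in 4 of 13, with differences from 1.00 to 2.62 and from 1.28 to 2.53 and adjusted p up to 0.52 and 0.54.

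Tafa2 and Slit2 were many times more abundant in CA3 than in CA1. Of the 6 CA3 markers that the choice of CA1 nuclei did not use, Nectin3 (24.1 and 30.5 against 20.9 and 19.8 CPM in CA1) and Coch were lower at 21 months without overlap, and Bok, Cdh24, Socs2 and Trps1 overlapped. Over all genes, 23.2% lay lower without overlap in CA3, and that share in CA1 nuclei is not given here. The part of these markers in the results was not tested.

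The 3 genes of lowest p among the more positive differences from dentate granule nuclei were likewise more abundant in CA3. Sema3e, a secreted semaphorin that signals through plexin D1, stood at 314, 295, 314 and 312 CPM in CA3 and at 35.4 and 30.9 against 8.28 and 9.11 in dentate granule nuclei (difference 1.94 ± 0.14, edgeR, adjusted p = 4.14e-06). Stmn2, a microtubule regulator, stood at 175, 164, 186 and 191 CPM in CA3 and at 20.2 and 20.7 against 4.63 and 7.48 in dentate granule nuclei (1.92 ± 0.16, adjusted p = 9.36e-06). Slc8a1, a sodium-calcium exchanger, stood at 1213 and 1035 against 914 and 950 CPM in CA3 and at 232 and 212 against 68.4 and 62.4 (1.47 ± 0.12, adjusted p = 8.41e-06). In each, the CA3 level was the higher one at both ages and the dentate granule level fell. In male nuclei the difference for Sema3e was 2.27 and missed the threshold (edgeR, adjusted p = 0.35). Of the 6 CA3 markers that the choice of dentate granule nuclei did not use, Nectin3 (10.1 and 7.57 against 4.63 and 4.08 CPM there), Bok, Coch and Cdh24 were lower at 21 months without overlap, Trps1 (99.01 and 92.9 against 138 and 124) was higher and Socs2 overlapped. The share of all genes without overlap in dentate granule nuclei is not given here, so this number of markers has no base to be read against. Neurod6, a pyramidal neuron gene among the 38, stood in dentate granule nuclei at 6.37 and 8.42 against 2.56 and 2.18 CPM. The part of other pyramidal RNA in these results was not tested.

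The gene groups that define CA3 physiology were described by lists, with no list test. For each, the members with an unadjusted p under 0.05 stand beside the 4.88% over all genes, and the median log2 age effect beside the -0.00 over all 13445 genes. No member of any of the 19 lists passed the adjusted threshold of edgeR's test in all CA3 nuclei.

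Of the genes that receive the mossy fibre and recurrent input, none to a few stood out. None of the 6 kainate receptor genes tested had such a p (median -0.09). Grik2, the main subunit, stood at 1738, 1921, 2110 and 1662 CPM with overlapping ages (0.09 ± 0.13), and the auxiliary subunit Neto1 at 576, 586, 544 and 706. Of 16 AMPA receptor genes, 1 was lower by that p and none higher (median -0.03). This was Cacng5 (6.67 and 3.57 against 1.91 and 2.09 CPM), which is also 1 of the 5 CA2 markers. Gria1 stood at 3759, 3696, 3180 and 3679 CPM and Gria2 at 1774, 2074, 1744 and 1915. None of the 6 NMDA receptor genes had such a p (median 0.05), and Grin2a (3166, 2968, 2891 and 3107 CPM), Grin2b (2029, 1959, 1831 and 1992) and Grin1 (403, 401, 439 and 455) had log2 changes of 0.02, -0.01 and 0.21. Of 9 metabotropic receptor and Homer genes, only Homer2 had such a p (median -0.03), with Grm5 at 2470, 2175, 2326 and 2448 CPM.

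Of 18 genes of mossy fibre synapse adhesion, C1ql3, Adgrb1 and Nectin1 lay lower by an unadjusted p under 0.05 and none higher (median -0.02). Nectin1, the partner of Nectin3, stood at 41.8 and 37.0 against 29.2 and 29.5 CPM. C1ql3, a secreted complement-like synaptic organizer, stood at 22.6 and 46.4 against 15.3 and 13.3 CPM in CA3, and at 166 to 296 CPM in dentate granule nuclei, where it is made for the mossy fibres. Adgrb1, an adhesion receptor, stood at 112 and 145 against 96.3 and 96.9 CPM. The abundant Nrxn3 (9271, 7828, 8235 and 9691 CPM) and Nlgn1 (5577, 5250, 5510 and 5563) overlapped between the ages.

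Excitability genes lay near the median of all genes. Of 36 potassium and HCN channel genes 1, Kcnn3, was lower by that p (median 0.01), and of 24 sodium and calcium channel genes none was (median 0.02). With further markers 4 of 34 and 1 of 23 in these lists lay higher by that p and none lower. Of all genes, 3.08% lay higher there. Kcnip4 stood at 7216, 6565, 7604 and 7432 CPM and Cacna1c at 1713, 1893, 1941 and 1769. All 11 GABA-A receptor genes tested lay above 0, with a median of 0.11 and no member with such a p. Gabra5 stood at 189, 179, 203 and 190. The GABA-A median lay above 0 in 18 of 19 alternatives, and without the first 21-month library it was -0.11. With further markers all 11 again lay above 0, with a median of 0.21 and no member with such a p.

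Chaperone genes were the list with the most members at a low p. Of 25 tested, 7 lay lower by an unadjusted p under 0.05 and none higher, and 20 lay below 0, with a median of -0.26. Hspa8, the constitutive cytosolic HSP70, stood at 41.3 and 53.2 against 34.7 and 25.1 CPM (log2 -0.62 ± 0.17, edgeR, adjusted p = 0.96). Calr, a calcium-binding chaperone of the endoplasmic reticulum, stood at 16.5 and 27.9 against 10.9 and 12.4 CPM, and Hspa5, the reticulum's HSP70, at 16.3 and 26.5 against 10.9 and 13.5. The disulphide isomerase genes Pdia6 (29.8, 36.4, 21.3 and 23.2 CPM) and Pdia3 (40.4, 51.2, 37.1 and 28.9) and the co-chaperones Dnaja1 and Stip1 were the other 4. For all 7 genes the second 3-month library was the highest of the 4, and the groups did not overlap. With further markers 6 of 25 had such a p and 21 lay below 0. The median stayed below 0 in all 19 alternatives run, between -0.36 and -0.14. CA1 and dentate granule nuclei of the same libraries showed the same order for Hspa5, at 25.3 and 30.97 against 14.4 and 18.0 CPM and at 25.6 and 37.8 against 16.2 and 21.2 (edgeR, adjusted p = 0.054 and 0.14). Pdia6 fell in both CA1 (-0.67, edgeR, adjusted p = 0.0442) and dentate granule nuclei (-0.61, adjusted p = 0.0357), and Pdia3 fell in dentate granule nuclei (-0.48, adjusted p = 0.0206).

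Immediate early genes, which neurons switch on with activity, lay lower in 13 of 15 tested, out of 20 listed, with a median of -0.34. Only Fosl2 had an unadjusted p under 0.05, at 2.81 and 3.07 against 1.36 and 0.571 CPM. It passed edgeR's filter on low counts only through the 3-month libraries, where it was high, so its p is no support for a fall. Egr1 stood at 8.95 and 11.1 against 6.55 and 6.85 CPM, and Bdnf, which this list shares with the neurotrophins, at 43.5 and 41.9 against 39.8 and 30.5. The median of the list was -1.13 in female nuclei alone and 0.14 in male ones, and with further markers it was -0.053 over 11 genes, of which 8 lay below 0.

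Of 31 proteasome genes 2 lay higher by that p, Psmd14 (113 and 112 against 136 and 128 CPM) and Psma6 (9.48 and 10.7 against 16.1 and 12.8), with a median of 0.03. None of 38 oxidative phosphorylation genes had such a p (median -0.01). Of 20 clustered protocadherin genes tested, of 56 in the files, Pcdhb14 (5.09 and 4.66 against 9.82 and 7.43 CPM) and Pcdhb9 (1.23 and 1.19 against 3.00 and 3.05) were higher by that p, 14 lay above 0 and the median was 0.49. The median lay between 0.016 and 0.87 over the 19 alternatives. Pcdhb9 passed edgeR's filter on low counts only through the 21-month libraries, where it was high, so its p is no support for a rise. Clustered protocadherins, which are cell-surface identity proteins, were at low counts, and alpha and gamma members share exons, so that their single values are uncertain.

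Of 9 complement, MHC and interferon genes tested, out of 24 listed, 6 lay below 0, with a median of -0.22. The 1 with such a p lay higher: H2-D1, a class I MHC gene, at 2.98 and 2.18 against 4.64 and 4.76 CPM (edgeR, adjusted p = 0.96). With further markers the median was -0.071. Of 12 genes of the glucocorticoid response, 1 lay lower, Mertk at 10.2 and 17.0 against 9.004 and 5.33 CPM. Mertk, a phagocytic receptor gene, also led the cluster with astrocyte genes, and without nuclei holding glial marker UMIs its log2 change was 0.33. Nr3c2, the mineralocorticoid receptor, stood at 1204, 1052, 1016 and 1172 CPM with overlapping ages (median of the list -0.01). None of 11 neurotrophin signalling genes had such a p (median -0.04), and Ntrk3, the receptor for neurotrophin 3, stood at 866, 861, 825 and 842 CPM.

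Of 36 splicing and ribonucleoprotein genes Miat, Srsf5 and Ddx5 lay lower by that p (median 0.01). Of 16 serotonin, muscarinic and cannabinoid receptor genes Htr6 lay lower, at 4.56 and 4.06 against 2.18 and 2.28 CPM (median 0.11). Of 34 axon guidance genes Efnb2 and Efnb3 lay lower (median 0.09), at 6.14 and 10.1 against 5.18 and 1.90 CPM and at 4.21 and 6.04 against 3.27 and 1.71. Both encode transmembrane ephrins, and the ages did not overlap for either. Epha6, an EphA receptor, stood at 5830, 4925, 5378 and 6280 CPM.

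**Figure D5:**
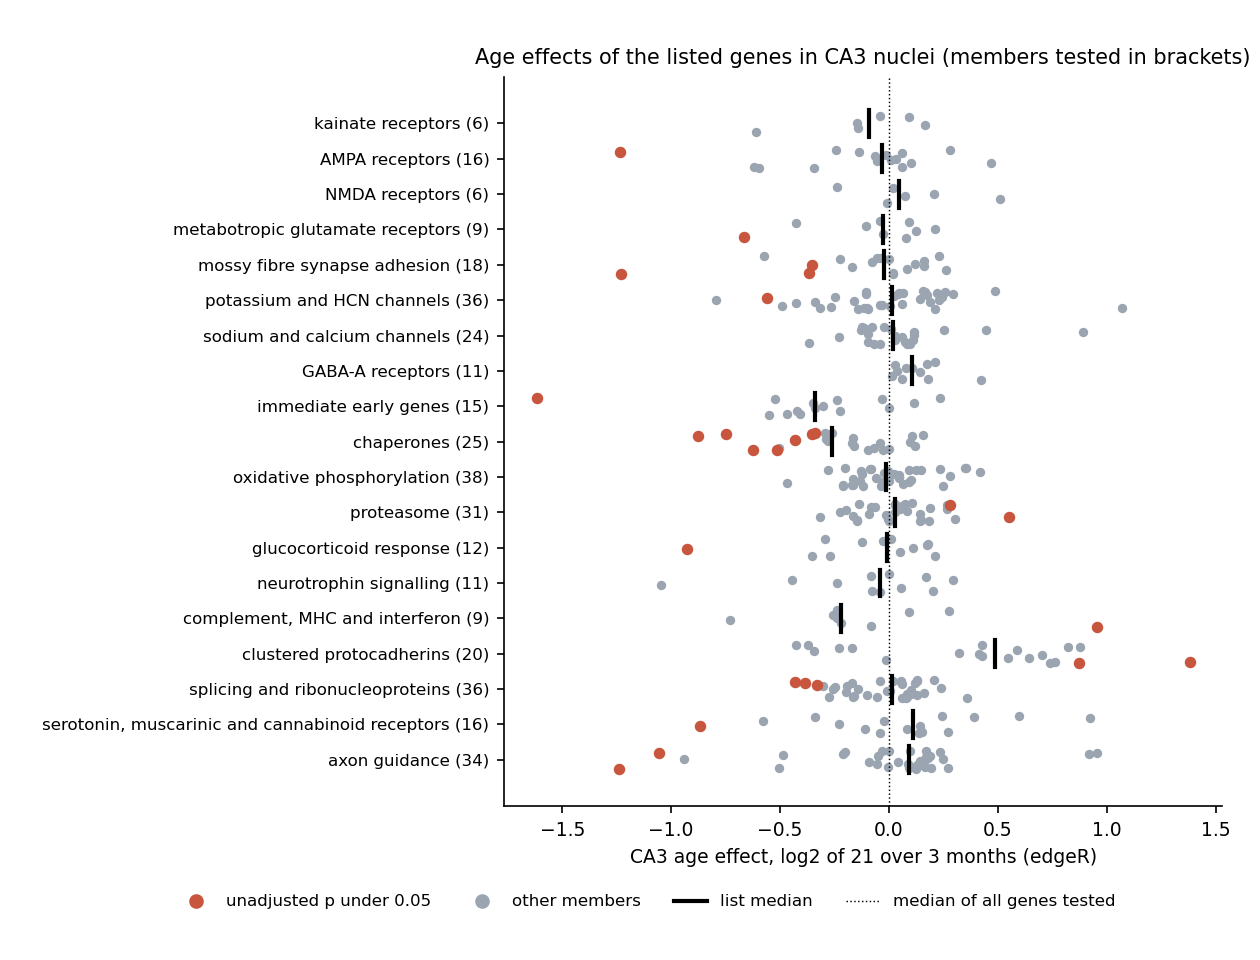
Log2 age effect (21 over 3 months, edgeR, x axis) in all CA3 nuclei of each member tested, by list (y axis, members tested in brackets). Red points have an unadjusted p under 0.05, grey points do not, black bars are list medians and the dotted line is the median of all genes. The chaperone median lies at -0.26 and the clustered protocadherin median at 0.49, while the receptor and channel lists lie near 0.

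Among the CA3 nuclei themselves, counts thinned to 5000 UMIs were ranked by variance over mean in each library, and genes were ordered by their lowest place in any library. First, tied with Sgcz, came the nuclear RNA Malat1, with ratios of 46.3, 38.6, 42.8 and 34.3. Sgcz, a sarcoglycan, had ratios of 36.3, 32.3, 37.3 and 36.9, and Gm32647 followed with 28.4, 25.1, 29.4 and 20.1. Gm32647 was the leading gene of the mossy-like cluster. The others of the first 10 in this order were Lrrtm4 and Lrrc4c, adhesion proteins of synapses, Asic2, an acid-sensing channel, Erbb4, a neuregulin receptor, Galntl6, Sgcd and Ptprd, with ratios between 8.61 and 23.6. Dpp10 lay outside these 10, with the highest ratios of all in both 3-month libraries (59.8 and 39.6) and 26.9 and 7.30 in the 21-month ones; it was named after its values were seen. Malat1 was found in 100% of the thinned nuclei of each library. Sgcz was found in only 10.7%, 11.6%, 17.3% and 7.73% of them, in the same order of libraries. Erbb4 was found in 5.78%, 11.6%, 17.99% and 4.64%, and Dpp10 in 10.7%, 9.20%, 17.99% and 6.70%. The part of the clusters above in these ratios was not tested. No test was made between the ages.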

How the data were processed

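Nuclei of 4 hippocampal libraries (2 at 3 months, 2 at 21 months) were analysed, with 4 caudate putamen libraries as background for the rule. The deposited matrices held raw UMI counts per gene and barcode for 32285 genes, with no normalization. Cell Ranger 6.1.2 stands in the file headers of 7 libraries and 7.0.0 in those of 1 caudate putamen library, while the submitters' processing notes name Cell Ranger 4.0.0 and the mm10 genome; the strand setting and the counting of introns are not given in the sources used here. Gene positions came from GENCODE vM21 (GRCm38, the same build as mm10), which held 32235 of the gene identifiers.

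The members and the gene lists were chosen with earlier results of these data known. Counts of the nuclei were summed per library and tested with edgeR 4.0.16 (TMM scaling, filterByExpr, robust glmQLFit, glmQLFTest; R 4.3.3, limma 3.58.1) and Benjamini-Hochberg adjustment over all genes tested, with DESeq2 1.42.0 as an alternative. The 11 genes of the rule stayed out of the counts of calls. Differences in age effect came from a fit of 12 sums (CA3, CA1, dentate granule) with the library as a block. CA1 nuclei held at least 4 UMIs of Mpped1, Fibcd1 and Wfs1, dentate granule nuclei at least 5 of Prox1, Trpc6 and C1ql2 and 2 of Rbfox3; both held fewer than 10 of Grik4, fewer than 3 of Iyd and Cpne4 and met the other limits. CPM are unscaled library shares, while fold changes follow TMM.

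Clustering (scanpy 1.11.5) used 2000 variable genes, 20 components, 15 neighbours and a Leiden resolution of 0.8 on counts thinned to 5000 UMIs, which no CA3 nucleus fell under. Doublets were kept and an alternative left out the highest Scrublet scores (22, 55, 10 and 8 CA3 nuclei). A nucleus was called female with Xist and no Y-linked UMI, and male in the reverse case. Named genes were, per direction, up to 10 called genes without overlap of the ages, filled by the lowest unadjusted p among genes at 5 CPM or more in 1 age. From each list came the 3 highest in CPM and the 2 of lowest p, and for each difference the 3 lowest p per direction. The other genes named were chosen after their values were seen. A few genes are not reported here. The scripts were tested on simulated data. Alternatives are given in the closing section.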

Additional observations from a re-analysis of the deposited data

Results flagged for a closer look

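These genes were singled out because the test of the difference itself, in the edgeR fit of the 3 cell types with Benjamini-Hochberg adjustment, separated the age effect in CA3 from that in another type; each value is the log2 age effect in CA3 minus the other. Against CA1, Tafa2 had a difference of 1.36, Slit2 of 1.55 and Pcdh7 of 0.86, and Cadps2 had one of -1.57, Adcy1 of -1.07 and Homer2 of -1.03. Against dentate granule nuclei, Sema3e had a difference of 1.94, Slc8a1 of 1.47 and Stmn2 of 1.92, and Cadps2 had one of -1.40, Npas2 of -1.17 and Dchs2 of -1.78. Of the genes listed here, Cadps2, Adcy1 and Npas2 were called against both types.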

How the results depend on the processing

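The count of genes called in the CA3 age effect (0) was 8 with DESeq2, 87 without a filter on low counts, 5 with Grik4 at 20 or more UMIs, 1 at 5 or more, 1 with equal numbers of nuclei per library, 1 in female nuclei and 12 with further CA3 markers. It was 27 in female and 5 in male nuclei with further markers, and between 1 and 189 with 1 library left out: 12 and 1 without the 3-month replicates 1 and 2, 189 and 167 without those of 21 months. A lone library is then assumed to vary like the other group. The 17 differences from CA1 became 126 without the filter, 5 with equal nuclei, 4 without a library term, 45 in female and 4 in male nuclei, and between 2 and 63 with 1 library left out (10, 2, 50 and 63 in the order above). The 62 differences from dentate granule nuclei became 230 without the filter, 33 with equal nuclei, 25 without a library term, 140 with further markers and 8 in male nuclei, and between 30 and 158 (30, 38, 158 and 97). With the replicate number as a block the CA3 age effect still had 0 calls, and the 12 calls with further markers became 0; the numbers pair nothing in the labels, and replicate 1 minus 2 correlated at -0.215 between the ages over 13455 genes.

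Signs of the age effect in all CA3 nuclei turned for few genes, none of them called there by the main edgeR fit. Xist and Tsix were called with further markers and Homer2 for its difference from CA1. Uty was at -0.020 with equal sexes, -0.10 in male nuclei and -0.21 in male nuclei with further markers. Xist was at 0.21, 0.20 in female nuclei and 0.21 in female ones with further markers, and Tsix at 0.23 and 0.085 in male nuclei without and with further markers. Neto1 was at -0.087 to 0.38 with 1 library left out (the lowest without the second 21-month one), -0.059 in female nuclei and, with further markers, -0.094 in female and -0.0041 in male ones. Grin3a was at -0.28 to 1.04 with 1 library left out (the lowest without the first 21-month one) and -1.06 in male nuclei, Shisa9 at 0.056 with Grik4 at 5 or more and 0.012 in female nuclei, and Kcnn3 at 0.13 in female nuclei and 0.37 in those with further markers. Homer2 was at 0.22 in male nuclei with further markers, Gabra5 at -0.019 with equal sexes, Egr1 at 0.12 in male nuclei, Mertk at 0.33 without glial UMIs, Sorcs2 at 0.074 in female nuclei with further markers and Irf1 at -1.13 to 0.031 with 1 library left out (the highest without the second 3-month one). The share of CA3 nuclei differed by 4.21 points within the 3 types and between -0.50 and 0.92 with 1 library left out. The difference in median UMIs was 1627 with Grik4 at 20 or more, 1007 at 5 or more and 2312.5 to 3367.5 with 1 library left out.

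Restrictions by sex and by further markers were chosen after seeing the data. Depth limits the low genes and the smaller sets of nuclei, such as the 32 and 49 female CA3 nuclei at 21 months.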

Other observations

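A channel and a receptor gene among the 38 with a more positive age effect in CA3 than in dentate granule nuclei kept overlapping or nearly equal CA3 levels. They were chosen here after their values were seen. Kcnq5, a potassium channel of the M-current family, stood in CA3 at 2890, 2726, 2537 and 2889 CPM (3-month replicates 1 and 2, then 21-month ones) and in dentate granule nuclei at 101 and 69.0 against 28.7 and 34.7 (difference 1.32, edgeR, adjusted p = 8.39e-05). Cnr1, the main cannabinoid receptor of neurons, stood in CA3 at 38.3, 29.9, 33.0 and 36.0 CPM, with overlapping ages (1.62, adjusted p = 0.00322).

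Netrin receptor and neurexin genes were among the 24 with a more negative effect in CA3, and in each it was the dentate granule level that was higher at 21 months. Nrxn3 stood in dentate granule nuclei at 1902 and 1574 against 4061 and 3644 CPM, with a CA3 difference of -1.10 (edgeR, adjusted p = 0.0116). Unc5d stood in CA3 at 150, 97.96, 148 and 116 CPM and in dentate granule nuclei at 280 and 206 against 660 and 684 (-1.40, adjusted p = 0.0376). Unc5c stood in CA3 at 1734, 1810, 1872 and 1778 CPM and in dentate granule nuclei at 424 and 396 against 604 and 618 (-0.56, adjusted p = 0.0192).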
